A study of Mus musculus with 10 samples.

Results

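Soluble adenylyl cyclase and protein kinase A are described here through 8 genes of germ cells from WT and GRTH knock-in (KI) mice. The genes were chosen by name: the cyclases Adcy10 and Adcy3, the catalytic subunits Prkaca and Prkacb, and the regulatory subunits Prkar1a, Prkar1b, Prkar2a and Prkar2b. All 8 were among the 15507 genes listed, and all 8 passed the filter on low counts, as did 15389 genes in all. Each library holds poly(A) RNA from the germ cells of 1 mouse, with 5 WT and 5 homozygous KI mice, all 45 days old. To free the cells, testis tissue was digested with collagenase and then trypsin and passed through strainers. The KI allele is a human GRTH gene bearing the R242H mutation, and GRTH is the RNA helicase that Ddx25 encodes in the mouse. The preparations mix spermatogonia, spermatocytes and spermatids, so that each value is an average over these cells. The values are normalized counts, which are reads on a gene divided by the size factor of the library. Between 13323024 and 16422347 reads lay on genes in the WT libraries and between 12722086 and 15500582 in the KI libraries.

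Cyclic AMP is made from ATP by adenylyl cyclases and acts largely through protein kinase A, a holoenzyme in which a dimer of regulatory subunits holds catalytic subunits inactive until the regulatory subunits bind cyclic AMP. Adcy10 encodes the soluble cyclase, which is stimulated by bicarbonate and calcium and not by G proteins, is abundant in male germ cells, and is needed for sperm motility. The regulatory subunits also decide where the kinase sits, because A-kinase anchoring proteins bind their docking domain and tether the holoenzyme to structures such as the fibrous sheath of the sperm tail.

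Ddx25 (chr9:35541848-35558470, mm10), the targeted gene, had normalized counts of 7615, 7782, 5198, 11101 and 9458 in WT libraries 1 to 5 and of 146, 194, 161, 2.88 and 1.84 in KI libraries 1 to 5. Every KI library lay below every WT library, as the labels imply (log2 fold change −7.84, SE 1.03, limma adjusted p = 5.63e-05). These are reads assigned to the mouse gene, whereas the KI allele is human. In both genotypes libraries 1 to 3 differ from libraries 4 and 5 in mean read quality in the study's sequencing summary, and they are called read quality groups here. In KI libraries 4 and 5 the gene had only 3 and 2 reads, against 156 to 223 in KI libraries 1 to 3, so values are also given within the read quality groups for some genes. Fold changes are KI against WT on log2(normalized count + 1), tested with limma across the 15389 genes with Benjamini-Hochberg adjustment. For Ddx25, DESeq2 and edgeR on the reads gave a smaller log2 fold change of −6.35 each.

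Of the 8 genes, Prkar2a and Adcy10 were lower in KI and Prkar1b was higher at an adjusted p under 0.05. Among all genes tested, 13.3% were lower and 9.65% higher at this threshold. Prkar2a alone also met a fold of at least 1.5, a combination called differentially expressed here and met by 8.22% of all genes in the lower and 6.13% in the higher direction. The genotypes did not overlap in Prkar2a and Adcy10, lower in KI, and in Prkar1b, higher in KI, while 10.9% of all genes were lower and 6.8% higher without overlap. The median log2 fold change of the 8 genes was −0.07, and that of all genes tested 0.03. The median of the 8 genes turned above 0 when normalized counts were scaled to library totals (0.16, beside 0.25 for all genes), to the upper quartile (0.0254 beside 0.119) or to the spermatocyte markers below (0.0293 beside 0.122) and within libraries 4 and 5 alone (0.0265 beside 0.0168).

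Adcy10 (chr1:165485183-165576773), the soluble cyclase, had normalized counts of 6061, 6779.8, 5374, 5068 and 5974 in WT libraries 1 to 5 and of 3495, 3537, 3317, 4593 and 4746 in KI libraries 1 to 5. KI libraries 4 and 5 stood above KI libraries 1 to 3 and came close to the lowest WT library without reaching it. Adcy10 fell from 5851 ± 664 to 3937 ± 675 (SD, n = 5 each), and KI held 67.3% of the WT mean (log2 fold change −0.58, SE 0.121, limma adjusted p = 0.00258). The fold change was just short of the fold threshold and passed it on leaving out WT library 3 or 4 or KI library 4 or 5, with log2 fold changes of −0.61, −0.63, −0.64 and −0.65. Scaled to spermatocyte markers Adcy10 did not pass (log2 fold change −0.48, limma adjusted p = 0.329). Within libraries 1 to 3 the log2 fold change was −0.81 (limma adjusted p = 1.32e-06), and within libraries 4 and 5 it was −0.24 (limma adjusted p = 0.337). The difference between these fold changes was 0.57 and did not pass adjustment over all genes (limma interaction term, adjusted p = 0.101). In these mixed preparations, fewer cells of a type and less RNA per cell cannot be told apart.

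Adcy3 (chr12:4133397-4213524), a transmembrane cyclase that answers to G proteins and is known from olfactory cilia, was measured at 70.5 to 95.4 in WT and 54.0 to 111 in KI, so that the genotypes overlapped. The log2 fold change was −0.05 with a 95% interval of −0.46 to 0.35 (limma adjusted p = 0.875). It was −0.27 within libraries 1 to 3 and 0.26 within libraries 4 and 5. Adcy3 shares 1221 exon bases with Cenpo on the opposite strand, and because no source used here says whether counting was stranded, reads of the pair cannot be told apart. The other 7 genes share no exon base with a gene that overlaps them in the GENCODE vM21 basic annotation.

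**Figure D1:**
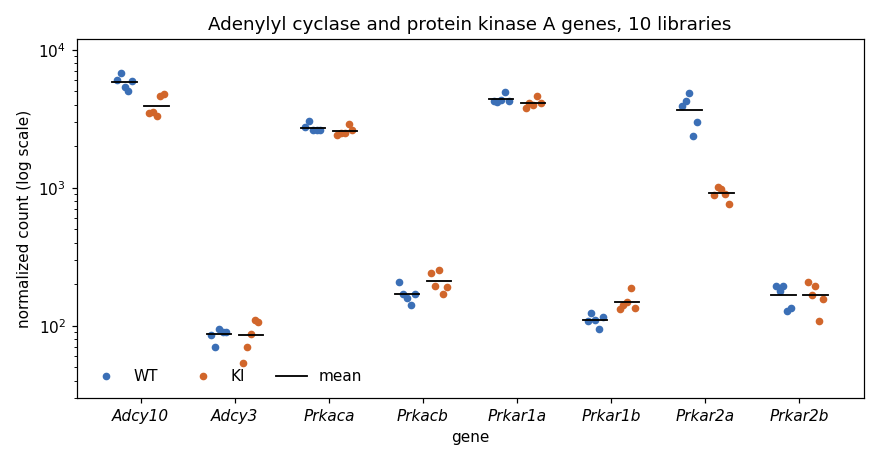
Normalized count (log axis) of the 8 genes in each of 10 libraries, with WT in blue, KI in orange and black lines for the means. KI lies below WT without overlap in Adcy10 and Prkar2a and above it in Prkar1b, and Prkar2a drops from a mean of 3680.1 to 911.

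Of the catalytic subunits, Prkaca (chr8:83972978-83996442) encodes the widely expressed Cα, of which sperm carry a variant of their own with another first exon, and Prkacb (chr3:146729579-146812946) encodes Cβ. Prkaca had 2776, 3030.3, 2609, 2623 and 2629 normalized counts in WT libraries 1 to 5 and 2422, 2509.9, 2496, 2883 and 2616 in KI libraries 1 to 5. The genotypes overlapped (log2 fold change −0.08, SE 0.0838, limma adjusted p = 0.548), and the 95% interval of −0.26 to 0.10 limits any fall to less than the fold threshold on this scale. Gene counts pool the Cα variants, so a shift between them would not be seen.

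Prkacb was measured at 141 to 207 in WT and 171 to 255 in KI. The genotypes overlapped (log2 fold change 0.30, SE 0.140, limma adjusted p = 0.136). With the library number as a paired block, a pairing that no label gives, the same difference passed the threshold (limma adjusted p = 0.0482).

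Prkar2a (chr9:108692143-108750444) encodes RIIα, a regulatory subunit of the type II kinase, which anchoring proteins bind tightly. Its normalized counts were 3923, 4221, 4894, 2375 and 2987 in WT libraries 1 to 5 and 889, 1015, 986, 905 and 760.0 in KI libraries 1 to 5. The WT libraries spread widely, with libraries 4 and 5 lowest, whereas the KI libraries lay close together and all below the lowest WT library. Prkar2a fell from 3680.1 ± 1001 to 911 ± 99.8 (SD, n = 5 each), so that the WT mean was 4.04-fold that of KI (log2 fold change −1.97, SE 0.163, limma adjusted p = 5.88e-07). The 95% interval of the log2 fold change was −2.32 to −1.63. It was −2.17 within libraries 1 to 3 and −1.68 within libraries 4 and 5, past the threshold in both.

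Markers of elongating spermatids moved in the same direction. All 7 of 7 such markers (Tnp1, Tnp2, Prm1, Prm2, Oaz3, Odf1 and Gapdhs) were lower in KI, beside 13.3% of all genes tested. The markers had a median log2 fold change of −2.50. Their summed normalized counts were 306514, 343013, 374632, 213072 and 202449 in WT libraries 1 to 5 and 50727, 57889, 58207, 42252 and 26105 in KI libraries 1 to 5, with Prm2 the most abundant and none at 0 reads in all libraries. In WT the sum was lowest in libraries 4 and 5, as Prkar2a was. In KI the sum was again lowest in libraries 4 and 5. There Prkar2a was lowest in library 5 (760.0) and next lowest in library 1 (889), with library 4 at 905. The part of these cells in the fall of Prkar2a was not tested.

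The genes most like Prkar2a were sought by the root mean square difference of centred log2 values over the 10 libraries, among 10526 genes whose mean reached 100 normalized counts. Hspa1l came nearest, at 0.0902, followed by Gapdhs at 0.102 and 4930571K23Rik at 0.103, where the median over the candidates was 1.04. The difference between genotypes was part of this search, so a fall like that of Prkar2a was fixed by the choice. Hspa1l, a testis-expressed heat shock protein, fell from 13113 ± 4173 to 2977 ± 379 (SD, n = 5 each), with a log2 fold change of −2.08. Gapdhs, the glycolytic enzyme of the sperm tail and one of the spermatid markers above, had a log2 fold change of −2.13, and 4930571K23Rik one of −2.08.

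Prkar1a (chr11:109649023-109669663) encodes RIα, the regulatory subunit of the mostly soluble type I kinase. It was measured at 4269, 4199, 4309, 4941 and 4289 in WT libraries 1 to 5 and at 3802, 4137, 3971, 4603 and 4102 in KI libraries 1 to 5. WT library 4 and KI library 4 were the highest of their genotypes, and the genotypes overlapped (log2 fold change −0.09, SE 0.0860, limma adjusted p = 0.483). KI was the lower in 5 of 5 pairs of libraries of the same number, and with these pairs as a block Prkar1a did not pass either (limma adjusted p = 0.316). The 95% interval of −0.28 to 0.09 lies apart from that of Prkar2a.

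Prkar1b (chr5:139017304-139150703), the RIβ gene best known from neurons, had normalized counts of 108, 124, 109.9, 95.3 and 115 in WT libraries 1 to 5 and of 132, 142, 149, 188 and 135 in KI libraries 1 to 5. Every KI library lay above every WT library, with KI library 4 highest. The rise was from 110.3 ± 10.4 to 149 ± 22.5 (SD, n = 5 each; log2 fold change 0.42, SE 0.131, limma adjusted p = 0.0288). Within the read quality groups Prkar1b did not pass with limma (log2 fold change 0.31 in libraries 1 to 3 and 0.60 in libraries 4 and 5). It did not pass either when scaled to spermatocyte markers (log2 fold change 0.52, limma adjusted p = 0.218). On leaving out any of WT libraries 1, 3 and 4 and KI libraries 3 and 4 the limma adjusted p was between 0.0514 and 0.0651.

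Prkar2b (chr12:31958471-32061277), the RIIβ gene of brain and fat, ranged from 127 to 196 in WT and from 108 to 206 in KI (log2 fold change −0.01, SE 0.183, limma adjusted p = 0.986). Libraries 4 and 5 were the lowest in each genotype. With normalized counts scaled to library totals the log2 fold changes of Adcy3, Prkaca, Prkar1a and Prkar2b were above 0 (0.17, 0.15, 0.13 and 0.22), none of them past the threshold, and Prkacb passed at 0.53 (limma adjusted p = 0.0158).

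To compare levels between genes, normalized counts were divided by the length of the merged exons of each gene in kb. On this per-kb scale the WT levels of Prkaca, 1099 ± 72.1 (SD, n = 5), Prkar1a, 1081 ± 74.8, and Adcy10, 1076 ± 122, did not differ beyond their spread. Prkar2a came next at 741 ± 202 per kb, and Prkar2b, Prkar1b, Prkacb and Adcy3 were far lower, at 45.4 ± 9.06, 38.2 ± 3.60, 32.6 ± 4.64 and 17.2 ± 1.90 per kb. The WT libraries of Prkar2b and Prkar1b overlapped, as did those of Prkar1b and Prkacb, while Prkar2b lay above Prkacb in each WT library. In KI, Prkaca and Prkar1a stood first at 1039 ± 72.4 and 1013 ± 73.5 per kb, within their spread of each other. Adcy10 followed at 724 ± 124 and Prkar2a at 184 ± 20.1 per kb. The remaining KI levels per kb were 51.6 ± 7.78 for Prkar1b, 45.5 ± 10.6 for Prkar2b, 40.4 ± 6.92 for Prkacb and 17.0 ± 4.77 for Adcy3, where Prkar1b, Prkar2b and Prkacb lay within the spread of their neighbours.

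The make-up of the regulatory subunit RNA is given on the same per-kb scale, as a description without a test. Prkar2a made up 38.4 ± 7.54% (SD, n = 5) of the summed regulatory subunit level in WT and 14.2 ± 1.52% in KI. Its lowest share in a WT library was 27.2%, in library 4, and its highest in a KI library 15.5%, in library 2. Prkar1a held 57.2 ± 7.78% of the sum in WT and 78.3 ± 2.05% in KI, while its own level did not pass the test. Prkar1b and Prkar2b together stayed minor, at 2.01 ± 0.214% and 2.37 ± 0.316% in WT and 3.97 ± 0.378% and 3.56 ± 0.964% in KI.

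Summed per kb, the regulatory subunits were at 1906 ± 166 in WT and 1294 ± 73.7 in KI, and the catalytic subunits at 1131 ± 74.0 and 1079 ± 67.2 (SD, n = 5 each). Regulatory over catalytic RNA was 1.58 to 1.98 in the WT libraries and 1.15 to 1.26 in the KI libraries, without overlap. Prkaca gave 97.1 ± 0.365% of the catalytic sum in WT and 96.2 ± 0.811% in KI. These ratios do not depend on how libraries are scaled. They rest on RNA alone, and no subunit protein was measured here.

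**Figure D2:**
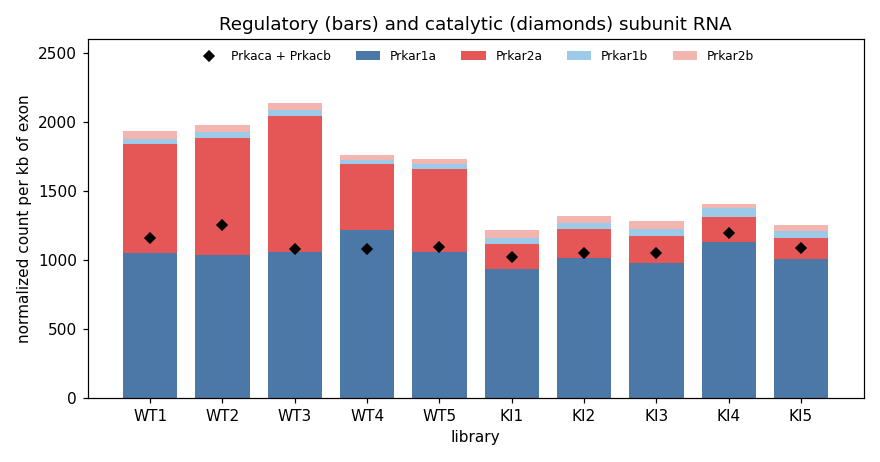
Normalized count per kb of exon in each library, with stacked bars for the regulatory subunits and black diamonds for the catalytic subunits Prkaca and Prkacb added together. The Prkar2a segment is 478 to 986 per kb in WT and 153 to 204 in KI, while the Prkar1a segments overlap.

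Another 57 measured genes of the cyclic AMP pathway, in 9 lists, place the 8 genes in context. Of these, 15 were lower and 10 higher in KI and 32 did not pass, with a median log2 fold change of −0.04 beside 0.03 for all genes. As a share, 15 of 57 stands beside the 13.3% and 10 of 57 beside the 9.65% of all genes tested. With the paired block the counts were 17 lower and 16 higher, beside 17.4% lower and 14.7% higher of all genes. Scaling to library totals raised the median of all genes to 0.25 and gave 15 lower and 20 higher, beside 7.92% lower and 32.6% higher of all genes. Scaling to spermatocyte markers gave 7 lower and 4 higher, beside 5.22% lower and 3.97% higher of all genes. The median of the 57 genes turned above 0 when scaled to library totals (0.19), the upper quartile (0.0514) or spermatocyte markers (0.0548) and in libraries 4 and 5 alone (0.0559). Scaling to library totals also turned the median of the anchoring proteins from −0.15 to 0.08 and that of the CREB family from −0.12 to 0.11. Libraries 1 to 3 alone gave 15 lower and 11 higher (all genes: 17.9% lower and 13.3% higher), and libraries 4 and 5 alone 9 lower and 5 higher (all genes: 7.62% lower and 3.42% higher). Of the 25 genes that passed over all libraries, 22 passed in libraries 1 to 3 alone and 14 in libraries 4 and 5 alone, all of them with the same sign in both groups, and the difference between the groups passed for none of them (limma interaction term, lowest adjusted p = 0.0747). Adcy4, Adcy8, Pde4c, Pde11a and Akap5 were not analysed here.

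Anchoring proteins moved in both directions. Of 14 measured, 5 were lower and 3 higher (6 and 4 with the paired block, where Akap7 also passed as lower and Akap9 as higher), with a median log2 fold change of −0.15. Of all genes, 13.3% were lower and 9.65% higher, and 17.4% and 14.7% with the block. Scaled to spermatocyte markers 2 anchoring proteins were lower and 1 higher, beside 5.22% and 3.97% of all genes. In libraries 4 and 5 alone 2 were lower and 2 higher, beside 7.62% and 3.42% of all genes. Scaled to library totals 5 were lower and 6 higher, beside 7.92% and 32.6% of all genes. Akap4, the main protein of the fibrous sheath, had 41855, 47739.5, 46544, 31360.3 and 29270.3 normalized counts in WT libraries 1 to 5 and 11383, 12037, 11012, 10569 and 8848 in KI libraries 1 to 5. No KI library reached the lowest WT library (log2 fold change −1.85, SE 0.148, limma adjusted p = 4.44e-07). Akap3, which binds Akap4 in the same sheath, fell less, from 16726 ± 1174 to 12236 ± 1027 (SD, n = 5 each; log2 fold change −0.45, SE 0.0968, limma adjusted p = 0.00318), and did not pass in libraries 4 and 5 alone (log2 fold change −0.37). Akap1, which tethers the kinase to the outer mitochondrial membrane, fell from 12093 ± 2729 to 4613 ± 347 (log2 fold change −1.36, SE 0.142, limma adjusted p = 6.30e-06), with −1.64 in libraries 1 to 3 and −0.94 in the remaining pairs, a difference that did not pass (limma interaction term, adjusted p = 0.0747). The scaffold Akap12 was the most abundant by count and fell from 43782 ± 7553 to 21679.5 ± 5737 (log2 fold change −1.03, SE 0.178, limma adjusted p = 5.99e-04). Its log2 fold change was −1.40 within libraries 1 to 3 but only −0.48 within the other 2 pairs, a difference with a limma adjusted p of 0.0747 (interaction term). Akap12 did not pass in libraries 4 and 5 alone (limma adjusted p = 0.181). Akap14, an anchoring protein of cilia, also fell (log2 fold change −0.73, SE 0.122, limma adjusted p = 4.61e-04). In libraries 4 and 5 alone Akap14 did not pass (log2 fold change −0.54, limma adjusted p = 0.0856). It shares 49 exon bases with Nkap on the other strand. Summed over the list without division by length, WT libraries held 90982 to 133887 and KI libraries 50484 to 62772. This sum is weighted to the genes of highest count, Akap12, Akap4, Akap3 and Akap1, all lower in KI, and does not show the 3 that were higher. The part of the lower elongating spermatid markers in the falls of these 4 genes and Akap14 was not tested.

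In the other direction, Akap2 rose from 316 ± 30.7 to 745 ± 65.6 (SD, n = 5 each; log2 fold change 1.23, SE 0.0989, limma adjusted p = 4.44e-07). This value is uncertain, because Akap2 shares 4627 exon bases with Pakap on the same strand, which was counted separately with a log2 fold change of 0.72. Akap6, an anchoring protein of the nuclear envelope in muscle, was 85.8, 101, 83.3, 95.3 and 112 in WT and 112, 108, 124, 251 and 235 in KI (log2 fold change 0.70, SE 0.229, limma adjusted p = 0.0387). KI libraries 4 and 5 were the high ones, and the limma adjusted p within libraries 1 to 3 was 0.106. Akap13 rose slightly (log2 fold change 0.40, SE 0.127, limma adjusted p = 0.0356) and did not pass in libraries 4 and 5 alone (limma adjusted p = 0.152).

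Sperm proteins with a docking domain like that of RII were lower in 3 of 4 cases, beside 13.3% of all genes, with a median of −0.79. Spa17 fell from 9071 ± 1517 to 4878 ± 820.0 (SD, n = 5 each; log2 fold change −0.90, SE 0.141, limma adjusted p = 2.89e-04), and it shares 53 exon bases with Siae on the other strand. Ropn1, a partner of the sheath proteins, and Cabyr, a calcium-binding protein of the sheath, had log2 fold changes of −0.85 (adjusted p = 0.00301) and −0.73 (adjusted p = 2.15e-04) with limma. Ropn1l did not pass (log2 fold change −0.18, SE 0.115, limma adjusted p = 0.295).

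Among inhibitors and relatives of the catalytic subunit, Pkib and Prkx moved in opposite directions. Pkib, an inhibitor peptide of the catalytic subunit known from testis, had 1350.5, 1349, 1355, 843 and 852 in WT libraries 1 to 5 and 496, 427, 571, 399 and 282 in KI libraries 1 to 5. WT libraries 4 and 5 were well below WT libraries 1 to 3 but above every KI library (log2 fold change −1.40, SE 0.190, limma adjusted p = 7.28e-05). Prkx, an X-linked kinase that RI subunits can inhibit, had 91.0, 75.2, 109, 86.3 and 91.3 in WT and 262, 236, 218, 169 and 159 in KI, again without overlap (log2 fold change 1.18, SE 0.156, limma adjusted p = 5.98e-05). Pkia, another inhibitor peptide, rose at low counts from 20.2 ± 7.95 to 41.7 ± 9.93 (log2 fold change 1.07, SE 0.288, limma adjusted p = 0.0134), but did not pass in libraries 4 and 5 alone (limma adjusted p = 0.161). Pkig, the remaining inhibitor, did not pass (log2 fold change −0.04, SE 0.0958, limma adjusted p = 0.802). The 4 genes had a median of 0.52.

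Of the 6 transmembrane cyclases measured besides Adcy3, 1 was lower and 2 were higher (median 0.35), and with the block 1 and 4. Of all genes, 13.3% were lower and 9.65% higher, and 17.4% and 14.7% with the block. Adcy7 rose from 71.1 ± 26.3 to 153 ± 28.8 (log2 fold change 1.16, SE 0.238, limma adjusted p = 0.00235) and Adcy5 from 37.7 ± 8.98 to 63.9 ± 6.57 (log2 fold change 0.78, SE 0.198, limma adjusted p = 0.00968), both without overlap. Adcy2 fell from 47.7 ± 16.8 to 21.2 ± 6.53 with overlapping libraries (log2 fold change −1.12, SE 0.302, limma adjusted p = 0.0140). Adcy5 did not pass in libraries 4 and 5 alone (limma adjusted p = 0.102), nor did Adcy2 in libraries 1 to 3 alone (limma adjusted p = 0.0632). Gnas and Gnai1, the stimulatory and an inhibitory G protein subunit, were the 2 of 5 G protein subunits that passed (median of the list 0.28). Their log2 fold changes were 0.39 (adjusted p = 0.0242) and 0.37 (adjusted p = 0.0412) with limma. With the block 3 of these subunits were higher, beside 14.7% of all genes. Scaled to library totals 4 of the subunits were higher, beside 32.6% of all genes. None of the subunits passed when scaled to spermatocyte markers or in libraries 4 and 5 alone.

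Phosphodiesterases, which break cyclic AMP down, were lower in 3 and higher in 1 of 14 cases, with a median of 0.02. Of all genes, 13.3% were lower and 9.65% higher. With the block 3 phosphodiesterases were higher, beside 14.7% of all genes. Scaled to spermatocyte markers 1 was lower and 0 were higher, beside 5.22% and 3.97% of all genes. Scaled to library totals 3 were lower and 4 higher, beside 7.92% and 32.6% of all genes. Pde1a, a calmodulin-stimulated enzyme, fell from 2379 ± 348 to 1273 ± 133 (SD, n = 5 each; log2 fold change −0.90, SE 0.114, limma adjusted p = 4.15e-05). Its relative Pde1b fell from 104 ± 9.01 to 54.0 ± 11.2 (log2 fold change −0.95, SE 0.158, limma adjusted p = 4.50e-04) but did not pass in libraries 4 and 5 alone (limma adjusted p = 0.143). Pde7b fell at very low counts from 16.0 ± 4.91 to 7.25 ± 1.71 (log2 fold change −1.02, SE 0.301, limma adjusted p = 0.0227). It did not pass within libraries 1 to 3 or within libraries 4 and 5 (limma adjusted p = 0.149 and 0.142). Pde2a, which cyclic GMP stimulates, rose from 245 ± 29.0 to 361 ± 44.6 (log2 fold change 0.56, SE 0.117, limma adjusted p = 0.00271). Pde8a, the most abundant by count, did not pass, at 4932 ± 301 in WT and 5151 ± 931 in KI.

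Slc9c1, the sperm sodium-proton exchanger that is known to work with the soluble cyclase, was lower by about as much as Adcy10, from 3963 ± 593 to 2643 ± 230.0 (SD, n = 5 each; log2 fold change −0.58, SE 0.109, limma adjusted p = 0.00126). Within libraries 1 to 3 its log2 fold change was −0.75, and within libraries 4 and 5 it was −0.32, where the limma adjusted p was 0.158, and the difference between these had an adjusted p of 0.222 (limma interaction term). Scaled to spermatocyte markers Slc9c1 did not pass (log2 fold change −0.48). Crem, the cyclic AMP responsive activator of spermatid genes, was the 1 of 7 in the CREB family and its coactivators to pass, and fell from 3173 ± 471 to 2094 ± 297 (log2 fold change −0.60, SE 0.123, limma adjusted p = 0.00239; median of the list −0.12). With the block 2 of this list were lower, beside 17.4% of all genes, and none when scaled to spermatocyte markers, beside 5.22% of all genes. The exchange factors Rapgef3 and Rapgef4, which cyclic AMP activates without the kinase, did not pass, with log2 fold changes of −0.37 (adjusted p = 0.145) and −0.08 (adjusted p = 0.717) with limma. The part of the lower elongating spermatid markers in the falls of Adcy10, Slc9c1, Spa17, Ropn1, Cabyr, Pkib, Pde1a and Crem was not tested.

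**Figure D3:**
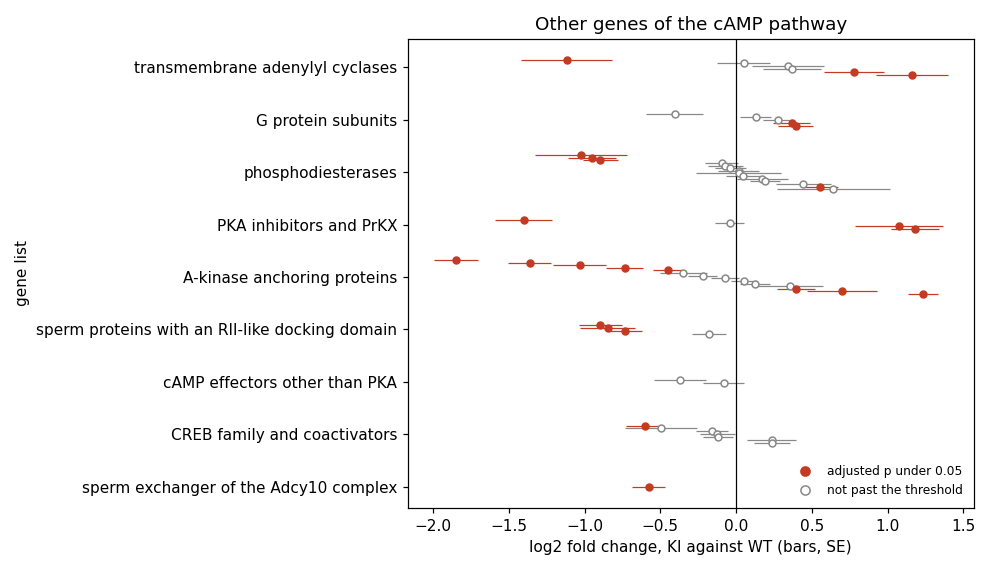
Log2 fold change (KI against WT) of 57 other cyclic AMP pathway genes in 9 lists, with bars for the SE and filled red points for an adjusted p under 0.05. Anchoring proteins spread from −1.85 (Akap4) to 1.23 (Akap2), while scaling to library totals moves the median of all genes from 0.03 to 0.25.

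Markers of the other cells were examined beside these results. Of all genes tested, 13.3% were lower and 9.65% higher. These shares were 17.4% and 14.7% with the paired block, and 5.22% and 3.97% when scaled to spermatocyte markers. They were 17.9% and 13.3% in libraries 1 to 3 alone, and 7.62% and 3.42% in libraries 4 and 5 alone. Of 6 round spermatid markers 2 were lower (median −0.34, Acrv1 most abundant; 3 with a median of −0.14 in libraries 1 to 3 alone and 5 with a median of −0.755 in libraries 4 and 5 alone), of 8 spermatocyte markers 1 was lower (median −0.10, Sycp2 most abundant), and of 7 spermatogonial markers 1 was lower (median 0.28, Uchl1 most abundant). With the paired block, 3 round spermatid markers were lower, and 2 spermatocyte markers were lower and 1 higher. Of the spermatogonial markers, 1 (Gfra1) was lower and 2 were higher with the block. The summed round spermatid markers were 12520.2, 12344, 11295, 11221 and 10489 in WT libraries 1 to 5 and 10754, 10838, 10814, 7501 and 5679 in KI libraries 1 to 5, lowest in KI libraries 4 and 5. Leydig cell markers were measured although the preparation was one of germ cells, and 3 of 6 were higher in KI (median 0.69, Insl3 most abundant). With the paired block 6 of 6 were higher, and 1 passed when scaled to spermatocyte markers (median 0.79) and 1 in libraries 4 and 5 alone (median 0.85). Their sums were 10838, 17806, 10124, 11076 and 14109 in WT libraries 1 to 5 and 21147, 22607, 25454, 14556 and 24324 in KI libraries 1 to 5. Macrophage markers were higher in 3 of 7 cases (median 0.65, Mrc1 most abundant; 4 with the block, 1 scaled to spermatocyte markers with a median of 0.74 and 2 in libraries 4 and 5 alone with a median of 0.84), with sums of 609, 767, 693, 719 and 793 in WT and 839.8, 971, 861, 878 and 1191 in KI. Peritubular myoid markers were higher in 2 of 4 tested (median 0.27, Acta2 most abundant) and endothelial markers in 1 of 4 (median 0.31, Cdh5 most abundant). The myoid markers Myh11 (log2 fold change −0.30) and Tagln (−0.23) lay below 0 and did not pass. The 6 Sertoli cell markers did not pass (limma adjusted p between 0.474 and 0.738, median log2 fold change 0.12, Inha most abundant), but 2 of them were higher in libraries 1 to 3 alone, where the median was 0.39, against −0.25 in libraries 4 and 5. Summed over its list, myoid markers ranged from 120.2 to 208 in WT and from 191 to 236 in KI, and the endothelial sum averaged 133 ± 27.0 in WT and 176 ± 22.3 in KI (SD, n = 5 each), with overlap. No marker was at 0 reads in all libraries. The part of these cells in the rises of Prkar1b and of the pathway genes that were higher in KI was not tested.

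The upstream sequence is shown for the genes that fell and, for contrast, for a start of Prkar1a that holds a cyclic AMP response element. All 8 genes matched RefSeq starts of build GRCm38.p6, and 22 windows of 250 bases upstream of a start were searched on both strands for the full element TGACGTCA, which is its own reverse complement, and for its shorter form TGACG or CGTCA, which the full element also contains. The full element was in 1.55% and the shorter form in 17.8% of the 32817 windows of all genes. Among the 8 genes the full element was in 1 window, that of a Prkar1a start at chr11:109650699-109650948 (plus strand), and this gene has 6 starts in the table. The shorter form was in 6 of the 22 windows, which belong to Prkaca, Prkacb, Prkar1a and Prkar1b. A pair of the Prkar1a windows overlap and share 1 match, so that 1 site is counted in both. The windows of Prkar2a at chr9:108691893-108692142 and of Adcy10 at chr1:165484933-165485182 (both plus strand) hold neither form. Matches are in capitals, and a match is a description of the letters only.
Prkar2a: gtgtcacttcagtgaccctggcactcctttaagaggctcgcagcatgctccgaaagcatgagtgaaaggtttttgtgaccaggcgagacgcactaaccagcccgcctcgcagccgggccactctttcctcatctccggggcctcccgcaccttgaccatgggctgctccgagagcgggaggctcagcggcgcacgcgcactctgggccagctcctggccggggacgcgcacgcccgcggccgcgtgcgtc
Adcy10: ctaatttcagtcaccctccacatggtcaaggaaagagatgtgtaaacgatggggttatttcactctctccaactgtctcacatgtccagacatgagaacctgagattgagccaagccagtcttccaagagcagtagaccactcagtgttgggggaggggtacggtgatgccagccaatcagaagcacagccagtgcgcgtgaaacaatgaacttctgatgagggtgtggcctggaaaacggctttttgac
Prkar1a: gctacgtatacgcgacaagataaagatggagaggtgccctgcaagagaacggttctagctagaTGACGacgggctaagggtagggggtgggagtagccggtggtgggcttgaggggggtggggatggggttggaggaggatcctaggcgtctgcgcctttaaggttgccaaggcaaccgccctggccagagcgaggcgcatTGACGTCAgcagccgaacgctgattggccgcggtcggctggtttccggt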

How the data were processed

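RNA of dispersed germ cells from 5 WT and 5 KI mice was measured as 1 library per mouse. The deposited signal is, for every gene, the read count of a library divided by its size factor, as the authors made it. They trimmed the reads, aligned them to mm10 with STAR, quantified genes of the RefSeq version they name with the E/M model of Partek and applied DESeq2 normalization, with software versions not given in the sources used here. Checked on the values, 100% of those under 5000 reads in each library came out as whole reads within 0.05 reads once divided by what 1 read is worth, and these reads were recovered. All columns of sample values were assigned (0 not assigned).

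Genes that passed filterByExpr by genotype (edgeR 4.0.16) on the recovered reads were tested on log2(value + 1) with limma 3.58.1 (R 4.3.3, variance trend), with Benjamini-Hochberg adjustment over all 15389. The edgeR quasi-likelihood test and DESeq2 1.42.0 on the recovered reads were alternatives and called 3570 and 3932 genes. Other scalings, pseudocounts, filters, a term for the read quality group, each read quality group alone, a replicate block and leaving out each library were also tried. The lists within each read quality group were added after seeing the data. Scripts were tested on simulated data.

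The members and lists were chosen with earlier results of these data known. The genes named are the 8 genes, Ddx25, every gene of the pathway lists past the threshold, and the 3 genes nearest to Prkar2a. Others named were chosen after their values were seen. Libraries of the same number correlated, after removing genotype means, with r of 0.306, 0.105, 0.280, 0.216 and 0.462. Since each was above 0.1, the numbers were taken to pair the libraries for the block. The labels give no shared litter or batch, and correlations between libraries of different numbers were not computed. The pairing is therefore an assumption, and so are the results with the block. Replicates differed by more than counting noise (chi-square per degree of freedom 2.67 to 46.4). Exon lengths and overlaps came from the GENCODE vM21 basic annotation and upstream sequences from RefSeq.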

Additional observations from a re-analysis of the deposited data

Results flagged for a closer look

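Single libraries far from the other 4 of their genotype were sought in 68 groups of 5 libraries (34 genes), where chance flags about 1 in 20 groups, and 5 were found. Prkar1a in WT library 4 had a normalized count of 4941, above the other WT libraries. Adcy5 in WT library 4 was at 22.1, below the others. Gnai1 in KI library 1 was at 229, above the others. Akap12 in WT library 4 was at 30663, below the others. Cabyr in KI library 5 was at 3065, below the others. The gap to the nearest library was more than 0.71 of the range of the group in each case.

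The fold change of Ddx25 differed between the read quality groups, with log2 fold changes of −5.34 in libraries 1 to 3 and −11.59 in libraries 4 and 5, a difference of −6.25 (limma interaction term, adjusted p = 1.12e-10). KI libraries 4 and 5 held at most 3 reads of the gene.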

How the results depend on the processing

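The fold changes of the 8 genes and the counts of genes that passed or were differentially expressed were recomputed under 24 alternatives. Prkar2a kept its direction and stayed past the threshold in all 24, with log2 fold changes of −2.17 to −1.68. Adcy10 kept its direction in all 24 and its call in 22. It missed the threshold when scaled to spermatocyte markers (−0.48, adjusted p = 0.329) and in libraries 4 and 5 only (−0.24, adjusted p = 0.337), in a range of limma adjusted p from 1.32e-06 to 0.337. Prkar1b was above 0 in all 24 but missed the threshold in 8, which were scaling to spermatocyte markers (0.52), libraries 1 to 3 only (0.31), libraries 4 and 5 only (0.60), and leaving out WT library 1, 3 or 4 or KI library 3 or 4 (limma adjusted p between 0.0514 and 0.0651). Leaving out 1 library gave log2 fold changes of 0.34 to 0.47. Prkacb passed when scaled to library totals (0.53) and with the replicate block (0.30, adjusted p = 0.0482), and the block changed no other call among the 8 genes.

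Of the 5 genes that did not pass, Adcy3, Prkaca, Prkar1a and Prkar2b changed sign. Scaled to library totals, the log2 fold change was 0.17 for Adcy3, 0.15 for Prkaca, 0.13 for Prkar1a and 0.22 for Prkar2b. Scaled to the upper quartile it was 0.0378 for Adcy3, 0.0130 for Prkaca and 0.0864 for Prkar2b. Scaled to spermatocyte markers it was 0.0421, 0.0164, 0.00254 and 0.0898 for Adcy3, Prkaca, Prkar1a and Prkar2b. In libraries 4 and 5 only it was 0.26 for Adcy3 and 0.0646 for Prkaca. For Prkar2b it was 0.00780 with DESeq2 and 0.00421 with edgeR. Leaving out 1 library gave −0.16 to 0.10 for Adcy3 and −0.10 to 0.14 for Prkar2b.

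Of the 8 genes, 3 passed, and 1 when scaled to spermatocyte markers or in libraries 4 and 5 only. Scaled to library totals or with the replicate block 4 passed, in libraries 1 to 3 only 2, and on leaving out 1 library 2 to 3. Differentially expressed were 1, and 2 when scaled to library totals or with TMM factors and in libraries 1 to 3 only, and 1 to 2 on leaving out 1 library. Of all genes, 3529 passed, 6238 when scaled to library totals, 1415 when scaled to spermatocyte markers, 1699 in libraries 4 and 5 only, 4811 in libraries 1 to 3 only, 4926 with the replicate block and 4819 with a term for the read quality group, and 2209 were differentially expressed against 1415 scaled to spermatocyte markers. Scaled to library totals 80.5% of the genes that passed were higher in KI, and to the upper quartile 59.3%, in place of 42.1%, and in libraries 4 and 5 only 31.0%. The cause of these changes was not tested. At 0 reads a gene may still have had up to 3.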
